A study of Mus musculus with 62 samples.

Results

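This report describes how white fat of mice carrying cachexia-inducing melanoma drew apart from the fat of mock-injected mice week by week. All 22 libraries of the cachectic arm (labelled CAC) and all 20 of the mock arm (labelled Con) were used, 42 of the 62 libraries in the series. No expression value entered the choice. For each gene, log2(TPM + 1) was fitted on arm, numeric week and their product, where TPM is a gene's share of a library's transcripts, corrected for length and scaled to a sum of 1000000. The product term is the weekly slope of the cachectic arm minus that of the mock arm, in log2 units per week, and is called the divergence slope below.

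The mice were female and 2 months old. One injected group received cachectic melanoma cells, another received non-cachectic melanoma cells (labelled NCAC, 20 libraries), and the control group had a mock injection. White adipose tissue was taken at 2, 4, 6 and 8 weeks, with 5 libraries in each group at each week and 7 in the cachectic group at 8 weeks. The depot is not stated. The labels conflict on the host: the series text names NCI Ath/nude mice, which lack a thymus and most T cells, while the strain field of the samples reads C57BL6/J. The treatment field reads cachectic cells for all 62 libraries, so arms were taken from the sample descriptions. The protocol also mentions 3 weeks after LLC cells, which matches no group here. The protocol calls the libraries biological replicates without saying which mouse each came from. If several shared a mouse, the p-values would measure a spread that is partly technical.

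Cachexia is a wasting syndrome in which tumour-bearing hosts lose fat and muscle. White adipocytes store triglyceride, release fatty acids by lipolysis and secrete leptin in proportion to fat mass. The acute-phase response is a change in secreted plasma proteins driven mainly by interleukin-6 acting through STAT3 and C/EBP factors, usually studied in liver. Glucocorticoids strengthen that response, and they also act on adipocytes through their own receptor.

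Over 8 weeks, 56 of 14577 tested genes (0.384%) had a divergence slope that passed limma's moderated test at an adjusted p under 0.05. Of these, 52 (0.357%) were positive, so that cachectic fat gained transcript relative to mock fat, and 4 (0.0274%) were negative. An unadjusted p under 0.05 was found for 1764 of the 14577, beside which unadjusted counts in the lists below should be read. With 0.384% called, a list of the sizes used here holds few or no calls, so 0 calls in a list shows little. The positive genes were led by fibrinogen, protease inhibitors and other secreted plasma proteins, followed by glucocorticoid, lipoprotein and sterol genes. Across all tested genes the median divergence slope was -0.02, with 4917 positive and 9660 negative slopes, so the positive calls stood against a majority of small negative slopes. In whole tissue, fewer cells of a type and less RNA per cell cannot be told apart.

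Promoters are shown for the 4 genes with the largest positive divergence slopes among those with a RefSeq promoter, without regard to motifs. The windows span 250 bases before to 50 after the annotated start, from RefSeq on GRCm38.p6. Capitals mark the STAT motif TTCNNNGAA, the C/EBP motif TTGCNNAA, the glucocorticoid receptor motif (GNACA and TGTNC with 3 bases between them) and the metal response motifs TGCACNC and TGCGCNC, each searched on both strands. Fga (fibrinogen alpha chain, chr3:83025903-83026202, plus strand) holds a STAT match, a C/EBP match and a metal response match. Itih4 (a heavy chain of the inter-alpha-trypsin inhibitor family, chr14:30886226-30886525, plus strand) holds a STAT match. Serpina3n (a secreted serine protease inhibitor, chr12:104406458-104406757, plus strand) holds a glucocorticoid receptor match. Fkbp5 (a co-chaperone induced by glucocorticoids, chr17:28486100-28486399, minus strand) holds none of these letters in this window.
Fga: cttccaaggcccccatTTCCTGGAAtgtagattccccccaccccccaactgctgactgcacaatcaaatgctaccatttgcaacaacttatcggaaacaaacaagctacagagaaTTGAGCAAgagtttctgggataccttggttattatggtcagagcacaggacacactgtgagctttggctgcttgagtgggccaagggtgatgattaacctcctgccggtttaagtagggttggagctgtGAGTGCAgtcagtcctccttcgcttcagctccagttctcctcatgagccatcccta
Itih4: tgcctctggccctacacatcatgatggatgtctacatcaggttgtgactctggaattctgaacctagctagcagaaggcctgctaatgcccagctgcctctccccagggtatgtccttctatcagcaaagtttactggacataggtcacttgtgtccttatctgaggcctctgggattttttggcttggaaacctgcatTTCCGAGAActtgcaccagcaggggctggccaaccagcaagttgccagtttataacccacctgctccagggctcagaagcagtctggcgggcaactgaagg
Serpina3n: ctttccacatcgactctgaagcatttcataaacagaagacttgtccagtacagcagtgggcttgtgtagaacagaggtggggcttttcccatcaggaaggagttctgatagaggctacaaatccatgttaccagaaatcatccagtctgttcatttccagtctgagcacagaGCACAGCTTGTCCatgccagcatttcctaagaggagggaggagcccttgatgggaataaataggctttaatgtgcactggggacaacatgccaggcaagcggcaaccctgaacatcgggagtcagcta
Fkbp5: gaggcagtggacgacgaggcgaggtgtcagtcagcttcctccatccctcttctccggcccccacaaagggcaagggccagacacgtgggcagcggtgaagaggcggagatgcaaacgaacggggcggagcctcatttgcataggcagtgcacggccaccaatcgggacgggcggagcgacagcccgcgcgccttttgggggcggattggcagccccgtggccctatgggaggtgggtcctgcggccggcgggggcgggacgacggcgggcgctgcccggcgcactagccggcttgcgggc
Of the 52 positive genes, 33 had a promoter in the RefSeq table, in 38 windows. The glucocorticoid receptor motif was in 4 of the 38 (10.5%), against 0.475% of all 32851 windows of this length. Those 4 belonged to Serpina3n, Serpina3c, Scd3 and Kcna5, and the first 2 of them are related gene copies with the same 13 letters. The STAT motif was in 6 windows (15.8%, against 8.3% of all) and the C/EBP motif in 7 (18.4%, against 10.8%). The metal response motif was in 3 windows as TGCACNC (7.89%, against 12.6%) and in 6 as TGCGCNC (15.8%, against 15.4%). The shares are descriptions of letters and were not tested.

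The divergence built up over the weeks, and most of it lay in the slope of the cachectic arm. For the 52 positive genes the median gap between arms, cachectic minus mock in log2(TPM + 1), was -0.17 at 2 weeks, 0.36 at 4, 1.09 at 6 and 1.80 at 8 weeks. In 47 of the 52 (90.4%) the gap rose at each of the 3 steps, where the choice by a positive slope favours such an order. The gap rose at each step in 6.72% of all tested genes and in 19.9% of those with a positive slope. The median slope of the 52 genes was 0.27 per week in the cachectic arm and -0.03 in the mock arm. The cachectic slope was the larger in size in all 52, and in 3996 of the 4917 tested genes with a positive slope. The choice by a called positive divergence slope favours a large cachectic slope. At 2 weeks the gap was below 0 in 34 of the 52, and in 2849 of the 4917 tested genes with a positive slope. A positive slope favours a low first gap. At 8 weeks, 17 of the 52 had all 7 cachectic libraries above all 20 mock libraries of any week, as did 0.213% of all tested genes. The choice by a positive slope in these same libraries also favours such separation, so the 2 shares are description only.

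**Figure D1:**
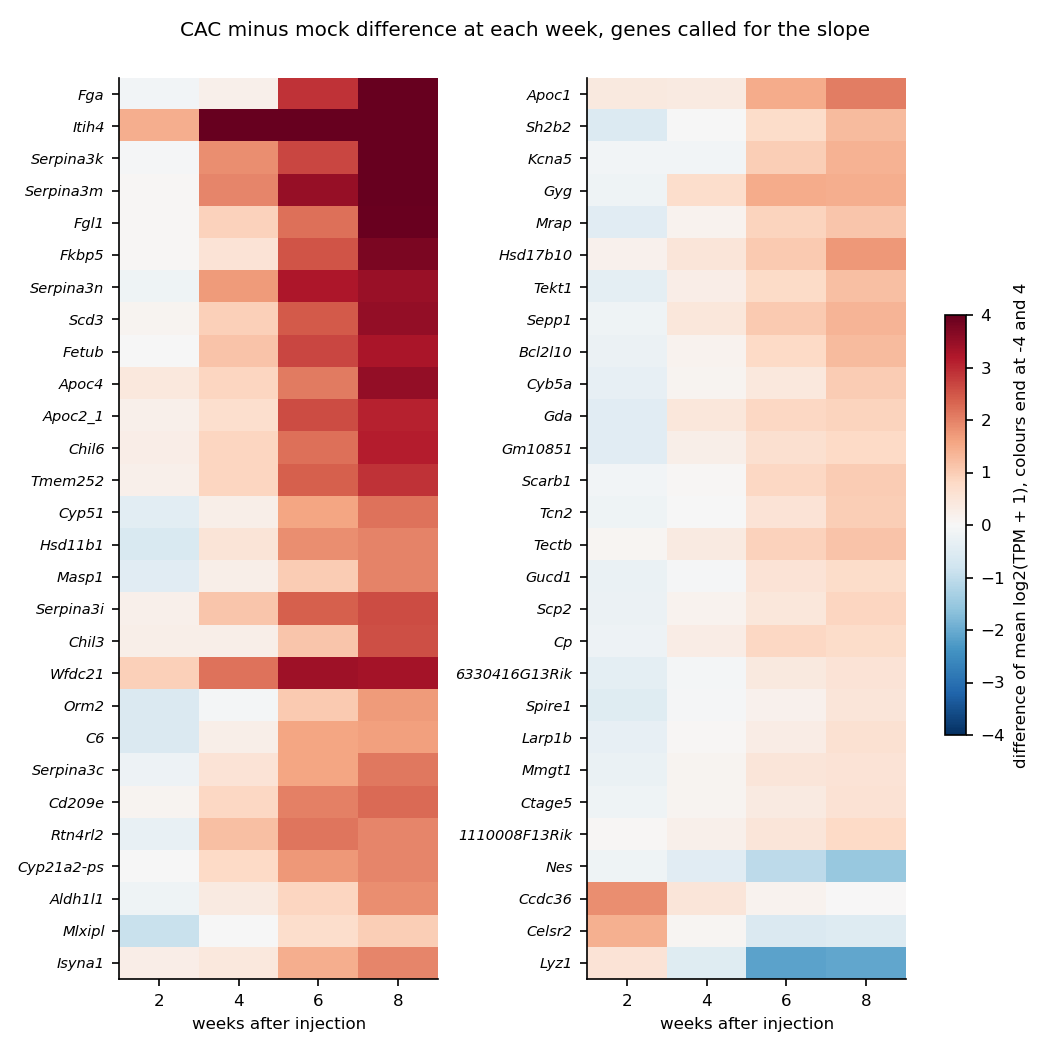
Heat map of the gap between arms (cachectic minus mock mean of log2(TPM + 1)) at 2, 4, 6 and 8 weeks for all 56 genes whose divergence slope passed the test, 1 row a gene, with colours ending at -4 and 4. Most positive genes start near or below 0 at 2 weeks and darken step by step, and Ccdc36 and Celsr2 start above 0 and fall.

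The step from 4 to 6 weeks was the largest in 27 of the 52 genes (51.9%), the step from 2 to 4 in 16 and that from 6 to 8 in 9. Among all 4917 tested genes with a positive slope, 50.4% also had their largest step between 4 and 6 weeks. No gene's gap departed from a straight line at an adjusted p under 0.05 in limma's moderated F test of the curved terms, with 144 at an unadjusted p under 0.05. Among the 52 positive genes, Rtn4rl2, a Nogo receptor family member, was the 1 with such an unadjusted p. A missed threshold does not show that the gaps were straight.

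Within the same fit, the cachectic slope alone passed the test in 1244 genes (8.53%), 842 of them rising (5.78%) and 402 falling (2.76%). This balance of rises and falls depended on the scaling. Without mitochondrially encoded genes 867 rose and 1342 fell, and with median-ratio rescaling 1394 rose and 1353 fell. The mock slope passed in 0 genes by limma, with 710 at an unadjusted p under 0.05. The cachectic slope passed in all 56 genes with a called divergence slope, but the 2 slopes use the same cachectic libraries. Most genes that moved within the cachectic arm were not called in the divergence test.

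Several limits bear on all these calls. Without the 2-week libraries no divergence slope passed limma's test (490 at an unadjusted p under 0.05). The same held without the libraries with over 100 TPM of summed urothelial markers, genes of bladder lining (0 passed, 540 unadjusted), which leaves 9 cachectic and 16 mock libraries. Such libraries numbered 13 of 22 in the cachectic arm (3, 2, 3 and 5 by week) and 4 of 20 in the mock arm. With the log2 urothelial sum as a covariate on all 42 libraries, 56 genes passed, 55 of them among the same genes. Rescaling by median ratios gave 106 calls (82 positive, 24 negative), 37 of them among the 56. Leaving out mitochondrially encoded genes gave 34 (20 positive, 14 negative), 24 of them among the 56.

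Cachectic replicate 3 at 8 weeks stood apart, with low values of Itih4, Serpina3m, Serpina3n, Fetub, Fkbp5, Hp and Lcn2 beside the other 6 libraries of its group. Without it 136 genes passed, including all 56. Other single libraries also moved the count by over 1.5 times. It was 30 without cachectic replicate 1 and 25 without replicate 5 of 2 weeks, and 32 without cachectic replicate 6 of 8 weeks. It was 27 and 35 without mock replicates 4 and 5 of 2 weeks, and 26 and 33 without mock replicates 2 and 5 of 8 weeks.

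Of all the gene lists, secreted acute-phase proteins gave the most divergence calls. Of 23 tested genes of the acute-phase list, 10 had a called positive divergence slope and 0 a negative one, against 0.357% of all tested genes called positive. This list, like the others, was chosen with earlier results of these data known. The contrast is therefore a description and was not tested. All 23 slopes were above 0, with a median of 0.40 per week. Their median gap grew from 0.05 at 2 weeks to 2.46 at 8 weeks. The 10 were Fga, Itih4, Fgl1, Serpina3k, Serpina3m, Serpina3n, Serpina3c, Orm2, Wfdc21 and Cp.

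Itih4 (chr14:30886476-30902353, GRCm38) rose from week to week in the cachectic arm. Its cachectic values were 2.54, 10.4, 72.5, 49.5 and 2.41 TPM at 2 weeks and 57.6, 329, 11.8, 203 and 27.2 TPM at 4 weeks. They were 763, 236, 639, 728 and 484 TPM at 6 weeks, and ran from 151 through a median of 1133 to 1336 TPM at 8 weeks. The 20 mock libraries stayed between 1.29 and 10.8 TPM, so that every cachectic library of 4 weeks or later lay above every mock library. The divergence slope was 0.88 per week (SE 0.16, limma adjusted p = 0.00336), 0.98 in the cachectic arm and 0.10 in the mock arm. The weekly gaps were 1.46, 4.03, 5.99 and 6.87.

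Fga (chr3:83026076-83033627) had the largest divergence slope of all genes, 1.03 per week (SE 0.23, limma adjusted p = 0.0244), with uneven values. It lay between 0 and 0.0573 TPM in the cachectic arm at 2 weeks and between 0 and 1.35 TPM at 4 weeks. At 6 weeks the values were 119, 3.14, 6.8, 0.535 and 21 TPM, and at 8 weeks they ran from 1.68 through 47 to 1245 TPM. In mock fat 1 library reached 4.27 TPM and the others 0.463 at most, so 5 of the 7 cachectic libraries at 8 weeks exceeded every mock library. Without mock replicate 2 of 8 weeks the limma adjusted p was 0.0518. Fibrinogen alpha is made mainly by hepatocytes, and liver markers are given with the other cell types below.

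Fgl1, a fibrinogen-like protein best known as a liver product, rose from near 0 in the cachectic arm. Its values there were 0.0149 to 0.143 TPM at 2 weeks, 0.0567 to 6.36 at 4, 2.9 to 9.58 at 6 and 0.322 to 59.8 TPM at 8 weeks, with a last median of 14.4. Mock libraries did not pass 0.901 TPM. The divergence slope was 0.65 per week (SE 0.12, limma adjusted p = 0.00336). Of the 7 cachectic libraries at 8 weeks, 6 lay above all mock libraries, and replicate 3 did not.

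The Serpina3 genes, relatives of human antichymotrypsin, gave 5 of the 52 positive genes and lie together on chromosome 12. Serpina3k and Serpina3m share an annotated start (chr12:104338486-104346144 and chr12:104338486-104394257), and reads of such close copies can be split between them, so each value is uncertain by itself. Serpina3n (chr12:104406729-104414329) was the most abundant, at 157, 309, 328, 285 and 122 TPM at 2 weeks and 389, 2063, 674, 1018 and 268 TPM at 4 weeks. It reached 3294, 1783, 2231, 1886 and 1031 TPM at 6 weeks and 295 to 3919 TPM at 8 weeks, with a median of 1938. Mock libraries held 86.3 to 375 TPM, so the 2-week values lay within the mock range and the 6-week values all above it. Its divergence slope was 0.60 per week (SE 0.11, limma adjusted p = 0.00721).

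Serpina3m followed the same course at lower levels. Its cachectic group means were 5.44 ± 2.91 TPM at 2 weeks (SD, n = 5), 27.7 ± 24.9 at 4 (n = 5), 63.7 ± 14.4 at 6 (n = 5) and 92.7 ± 64.6 TPM at 8 weeks (n = 7). Mock libraries lay between 1.41 and 7.42 TPM, just below the lowest 8-week cachectic library at 7.48 TPM. The divergence slope was 0.69 per week (SE 0.12, limma adjusted p = 0.00285). For Serpina3k it was 0.71 (SE 0.17, limma adjusted p = 0.0432), for Serpina3i 0.41 (SE 0.09, adjusted p = 0.0188) and for Serpina3c 0.38 (SE 0.09, adjusted p = 0.0406). The Serpina3k call passed in 18 of the 42 fits that each left out 1 library, and that of Serpina3m in all 42.

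The remaining called members were Wfdc21, Orm2 and Cp. Wfdc21, a small secreted protein of the whey acidic protein family, had a gap well above 0 from the first week sampled. The gaps were 0.95, 2.18, 3.39 and 3.33. Its divergence slope was 0.40 (SE 0.09, limma adjusted p = 0.0328). Orm2, an orosomucoid, had a slope of 0.40 (SE 0.10, adjusted p = 0.0488), which passed in 14 of 42 fits with 1 library left out. Cp, the copper carrier ceruloplasmin, had a shallow slope of 0.16 (SE 0.04, adjusted p = 0.0328), on tight groups: 27.8 ± 7.66 TPM at 2 weeks (n = 5) and 49.2 ± 4.15 at 8 weeks (SD, n = 7) in cachectic fat, and 31.8 ± 4.59 and 30.3 ± 8.46 TPM in mock fat (n = 5 each).

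Several well-known acute-phase genes did not pass. Haptoglobin (Hp) climbed to 3311 to 13467 TPM at 6 weeks in the cachectic arm, where mock libraries held 168 to 896 TPM in all weeks. Its divergence slope was 0.59 (SE 0.16, limma adjusted p = 0.0901) while its cachectic slope of 0.59 passed (adjusted p = 0.00041). Replicate 3 of 8 weeks held 582 TPM of Hp against 5077 to 20472 TPM in the other 6, and without that library the slope was 0.70 with an adjusted p of 0.00252. Saa3, a serum amyloid A gene of fat and macrophages, had a slope of 0.35 (SE 0.15, adjusted p = 0.351) and a cachectic slope that passed (0.49, adjusted p = 0.0015). Lcn2, lipocalin 2, had a slope of 0.15 with an adjusted p of 0.833 and a cachectic slope of 0.37 that did not pass either (adjusted p = 0.184), and 3 mock libraries held 10.5, 166 and 405 TPM of it. In all, 18 of the 23 acute-phase genes had a called rise within the cachectic arm.

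The acute-phase count rested on few libraries per week. It was 4 without mock replicate 2 of 8 weeks and 6 without cachectic replicate 4 of 8 weeks. It was 5 without cachectic replicate 1 or 5 of 2 weeks, cachectic replicate 6 of 8 weeks, mock replicate 4 of 2 weeks, or mock replicate 3 or 5 of 8 weeks. The median slope of the list stayed between 0.36 and 0.44 in these fits and without cachectic replicate 3 of 8 weeks. Without the libraries over 100 TPM of urothelial markers it was 0.24, with 21 of 23 slopes above 0 and 0 called.

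**Figure D2:**
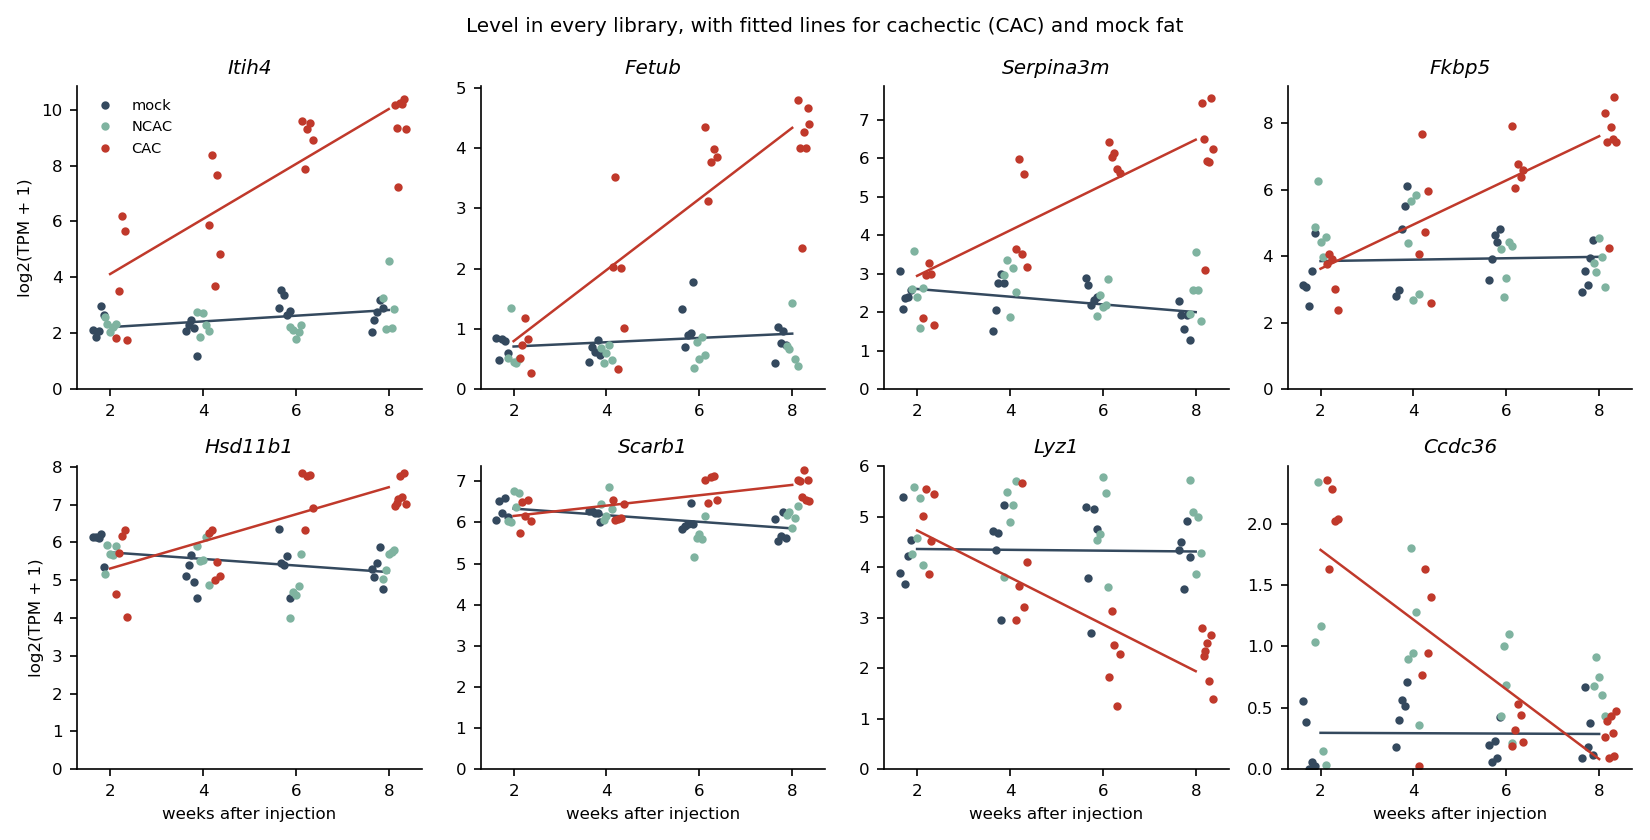
Level of 8 genes, log2(TPM + 1), in every library by week, with cachectic libraries in red, mock in dark blue and non-cachectic in green, and the fitted lines of the cachectic and mock arms. The red points of Itih4, Fetub and Serpina3m lie mostly above the blue and green points from 4 weeks on, Lyz1 goes the other way, and Ccdc36 is highest in the cachectic arm at 2 weeks.

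Other secreted proteins outside that list diverged as well. Fetub (chr16:22918334-22939778), the protease inhibitor fetuin-B, had the smallest p of all genes. Its cachectic values were 0.435, 0.657, 1.27, 0.781 and 0.207 TPM at 2 weeks, 3.08, 10.5, 0.263, 3.03 and 1.01 at 4 weeks, and 19.3, 7.66, 12.7, 14.8 and 13.4 at 6 weeks. At 8 weeks they ran from 4.04 through 18.3 to 26.8 TPM, all above the mock range of 0.349 to 2.42 TPM. The divergence slope was 0.55 per week (SE 0.09, limma adjusted p = 0.00138). It passed in every fit with 1 library left out.

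Of complement genes, Masp1, a protease of the lectin pathway, had a divergence slope of 0.41 (SE 0.08, limma adjusted p = 0.0143). C6, a component of the membrane attack complex, had a slope of 0.39 (SE 0.08, adjusted p = 0.0171). C6 rose from 2.69 ± 0.76 TPM at 2 weeks (n = 5) to 23.8 ± 13.8 at 8 weeks (SD, n = 7) in cachectic fat, where mock fat went from 4.92 ± 2.77 to 6.89 ± 3.42 TPM (n = 5 each). Selenoprotein P (Sepp1), a selenium carrier, had a slope of 0.25 (adjusted p = 0.0188), and Tcn2, transcobalamin, had a slope of 0.20 (adjusted p = 0.0254).

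The chitinase-like genes Chil3 and Chil6, neighbours on chromosome 3 and products of myeloid cells, also diverged. Chil6 was at 5.64 to 47.2 TPM in the 7 cachectic libraries of 8 weeks and at 0.128 to 4.83 TPM in all mock libraries, without overlap. Its slope was 0.49 (SE 0.12, limma adjusted p = 0.035), and that of Chil3 was 0.40 (SE 0.08, adjusted p = 0.0167). Cd209e, a C-type lectin, had a slope of 0.37 (SE 0.08, adjusted p = 0.0215). Summed macrophage markers were at 388.4 to 2198 TPM in cachectic and 245 to 3293 TPM in mock libraries. Of 11 macrophage genes 0 had a called slope, against 0.384% of all tested genes. The part of macrophages in the result was not tested.

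Glucocorticoid-responsive genes rose within the cachectic arm, but few diverged from mock fat by the test. Of 17 listed genes, 2 had a called positive divergence slope, Fkbp5 and Hsd11b1, and 11 a called rise within the cachectic arm, against 0.357% and 5.78% of all tested genes. With 1 library left out at a time the count of 2 became 1 to 4, and without cachectic replicate 3 of 8 weeks it was 4. The list's median divergence slope was 0.18, with 15 of 17 above 0. Its median gap was 0.00 at 2 weeks and 1.44 at 8 weeks. Without the libraries over 100 TPM of urothelial markers the median slope was 0.09, with 0 called.

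Fkbp5 (chr17:28399094-28517527) restrains the glucocorticoid receptor and is among its strongest targets. In the cachectic arm it was at 12.7, 15.9, 13.9, 7.09 and 4.22 TPM at 2 weeks, 15.7, 201, 25.5, 61.8 and 5.07 at 4 weeks, and 241, 65.7, 108, 81.8 and 95.4 at 6 weeks. At 8 weeks it ran from 17.9 through 181 to 442 TPM, with 6 of 7 libraries above the mock maximum of 68 TPM. The divergence slope was 0.64 (SE 0.15, limma adjusted p = 0.0402). It passed in 25 of 42 fits with 1 library left out, and without cachectic replicate 3 of 8 weeks it was 0.73 with an adjusted p of 0.00252.

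Hsd11b1 (chr1:193221634-193264075) encodes the enzyme that regenerates active glucocorticoid inside cells. Cachectic fat held 23.9, 51.3, 70.7, 79.1 and 15.4 TPM of it at 2 weeks and 75.6, 79.5, 31.2, 43.5 and 33.2 at 4 weeks. It held 227, 78.8, 215, 220 and 119 TPM at 6 weeks and 124 to 226 at 8 weeks. Mock fat moved the other way, from 64.1 ± 13.7 TPM at 2 weeks to 39.6 ± 11.9 at 8 weeks (SD, n = 5 each). The arms overlapped at 2 and 4 weeks, and at 8 weeks every cachectic library lay above all 20 mock libraries, whose highest was 81.4 TPM. The slope was 0.45 (SE 0.09, limma adjusted p = 0.00775), from 0.36 in the cachectic and -0.09 in the mock arm.

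Of the other listed glucocorticoid targets, Tsc22d3 (GILZ) had a divergence slope of 0.28 (SE 0.12, limma adjusted p = 0.351). The metallothioneins Mt1 and Mt2 had slopes of 0.54 (SE 0.15, adjusted p = 0.109) and 0.62 (SE 0.21, adjusted p = 0.254). Each of the 3 passed within the cachectic arm alone. Pdk4, which restrains glucose oxidation and is also a fasting gene, passed neither test (slope 0.12, adjusted p = 0.753). The receptor gene Nr3c1 itself had a slope of -0.05 (adjusted p = 0.62).

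**Figure D3:**
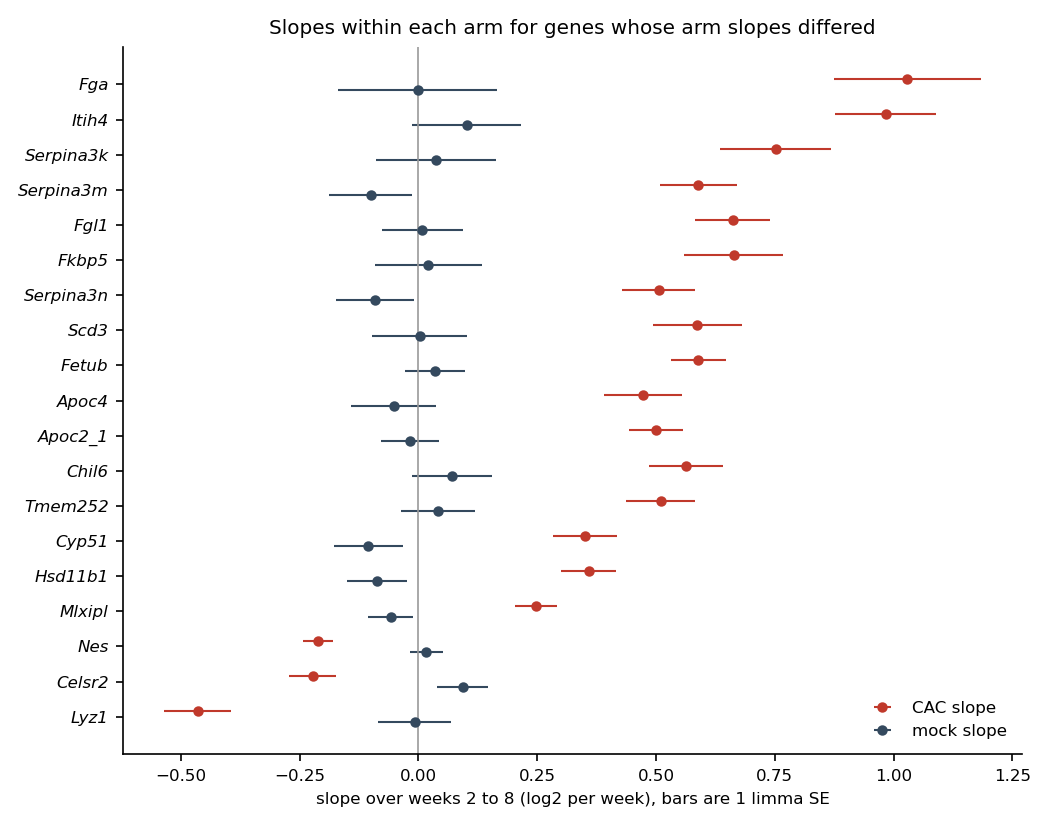
Weekly slope of the cachectic arm (red) and of the mock arm (dark blue) with 1 SE on each side, in log2 units per week, for 19 genes. The red slopes of genes with a positive divergence lie right of 0 and those of Lyz1, Celsr2 and Nes left of it, while mock slopes lie near 0.

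Several single genes of lipoproteins and sterols diverged, and their grouping here followed from their calls. Apoc4 and Apoc1 lie together on chromosome 7. An entry named Apoc2_1, a suffixed symbol for apolipoprotein C-II, the cofactor of lipoprotein lipase, has no coordinates here. Apoc2_1 was at 1.95 to 11.2 TPM in cachectic fat at 2 weeks and 8.93 to 77.2 TPM at 8 weeks, above the mock range of 2.24 to 5.46 TPM. Its slope was 0.52 (SE 0.08, limma adjusted p = 0.00169). Apoc4 had a slope of 0.53 (SE 0.12, adjusted p = 0.0328) and Apoc1 one of 0.30 (SE 0.06, adjusted p = 0.014). Apoc1, the most abundant, went from 499 ± 197 TPM (n = 5) to 1297 ± 267 (SD, n = 7) in cachectic fat, against 359 ± 69.6 and 320 ± 95.1 TPM in mock fat (n = 5 each).

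Scarb1, the receptor that takes up cholesteryl ester from high-density lipoprotein, changed by a smaller amount with tight groups. Its cachectic means were 74 ± 17 TPM at 2 weeks (n = 5) and 117 ± 23.9 at 8 weeks (n = 7), and its mock means were 79.3 ± 13.6 and 57.2 ± 12.9 TPM (SD, n = 5 each). The slope was 0.21 (SE 0.04, limma adjusted p = 0.00455). Cyp51, the lanosterol demethylase of cholesterol synthesis, had a slope of 0.46 (SE 0.10, adjusted p = 0.0229). It was the only called gene of 18 cholesterol synthesis genes, whose median slope was 0.09 with 15 above 0. Scp2, the sterol carrier protein, had a slope of 0.18 (SE 0.04, adjusted p = 0.0244).

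Of 15 fatty acid synthesis genes, 1 was called, Mlxipl, which encodes the carbohydrate-responsive factor ChREBP. Its gap was -0.88 at 2 weeks, -0.02 at 4, 0.69 at 6 and 0.99 at 8 weeks, so cachectic fat began below mock fat and ended above it. The slope was 0.31 (SE 0.07, limma adjusted p = 0.0188). Fasn and Scd1, the fatty acid synthase and the main fat desaturase, had slopes of 0.15 and 0.12 that did not pass. Scd3, a related desaturase, was at 0.4 to 1.74 TPM at 2 weeks and 1.97 to 158 TPM at 8 weeks in the cachectic arm, where mock libraries held 0.0206 to 2.85 TPM. Its slope was 0.58 (SE 0.14, adjusted p = 0.0349), and it shares much sequence with its abundant relatives, so its level is uncertain.

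Mrap, the accessory protein that brings the corticotropin receptor to the surface of adipocytes, passed in every fit with 1 library left out. Cachectic fat held 217 ± 87.7, 247 ± 63.1, 349 ± 58.8 (n = 5 each) and 389 ± 56.4 TPM (SD, n = 7) at 2, 4, 6 and 8 weeks. Mock fat held 276 ± 32.2, 221 ± 51.4, 193 ± 60.1 and 182 ± 43.5 TPM (SD, n = 5 each). The lines crossed: cachectic fat was lower at 2 weeks and all 7 libraries were above every mock library at 8 weeks. The slope was 0.27 (SE 0.05, limma adjusted p = 0.00543), from 0.16 in the cachectic and -0.11 in the mock arm. The corticotropin receptor gene Mc2r had a slope of 0.26 that did not pass, and adrenal markers such as Cyp11b1 stayed at or under 0.606 TPM in all 42 libraries.

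Lipolysis and adipocyte identity genes showed no called divergence, where 0.384% of all tested genes were called. Of 16 lipolysis genes, 0 were called, with 5 at an unadjusted p under 0.05 and a median slope of 0.03, and 4 rose and 3 fell within the cachectic arm. Pnpla2, which encodes adipose triglyceride lipase, had a slope of 0.17 (limma adjusted p = 0.241), and its cachectic slope of 0.16 passed (adjusted p = 0.0053). Lipe, hormone-sensitive lipase, had a slope of 0.05. Of 16 adipocyte identity genes, 0 were called (5 unadjusted, median slope 0.06), and adiponectin (Adipoq) had a slope of 0.05. Over all weeks their summed level was 42440 to 108400 TPM in cachectic and 41600 to 113800 TPM in mock libraries. The fat signature was thus present in both arms, but its level was not matched at each week. The median sum was 90230 TPM in cachectic and 90630 TPM in mock fat at 2 weeks, and 89130 and 61170 TPM at 8 weeks. Single libraries spread widely, at 42440 to 102400 TPM in cachectic and 51750 to 113800 TPM in mock fat at 2 weeks. Cachectic replicates 1 and 5 of 2 weeks, without which fewer slopes passed, held 51430 and 42441 TPM, and mock replicate 1 held 51752 TPM. The part of this shift and spread in the divergence slopes was not tested.

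Leptin (Lep) had a gap below 0 at every week, and its divergence did not pass. The gaps were -1.28, -2.17, -3.98 and -3.44, and its divergence slope was -0.40 (SE 0.20, limma adjusted p = 0.424). The cachectic slope of -0.54 passed (adjusted p = 0.011). Of 10 genes known to follow fat expansion, 0 were called for divergence and 5 fell within the cachectic arm, Lep, Nnat, Npr3, Oxtr and Sncg. Nnat, neuronatin, had the lowest slope of all tested genes, -0.84 (SE 0.31, adjusted p = 0.292).

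Thermogenic genes had 0 of 16 called slopes (1 at an unadjusted p under 0.05), with a median of 0.12. Ucp1, the uncoupling protein of brown and beige fat, had a slope of 0.41 with a wide error (SE 0.39, limma adjusted p = 0.674). Fatty acid oxidation had 0 of 17 and oxidative phosphorylation 0 of 24 called, with medians of 0.07 and 0.05. Interleukin-6 family signalling had 0 of 12 (median 0.07), although 6 rose within the cachectic arm: Bcl3, Il6ra, Osmr, Pim1, Socs3 and Stat3.

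**Figure D4:**
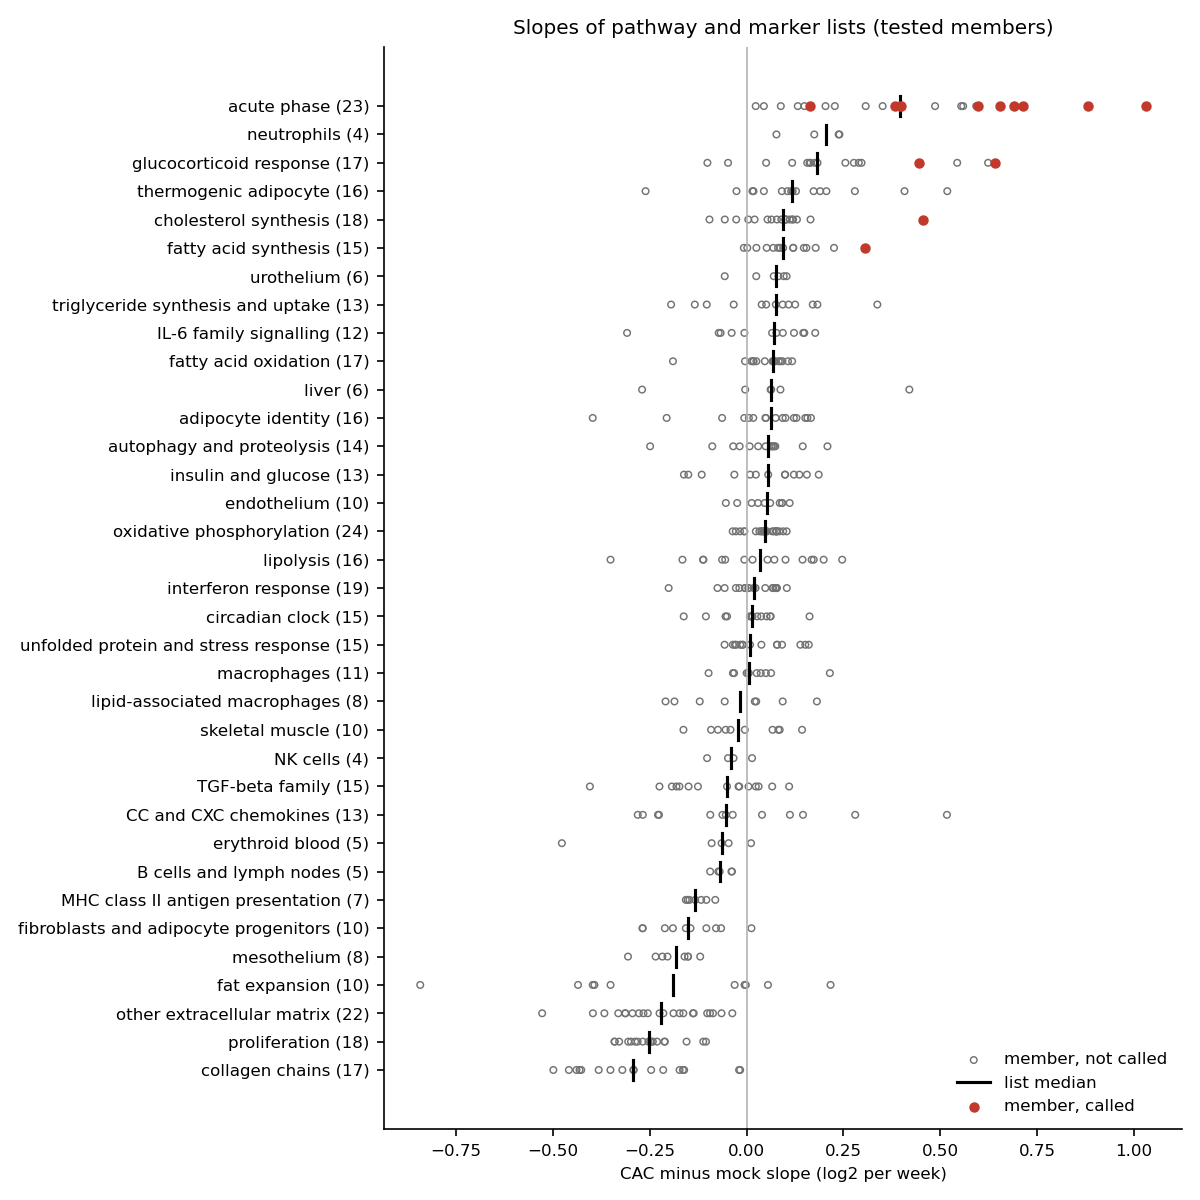
Divergence slope, in log2 units per week, of each tested member of 35 gene lists, with a bar at the list's median and members that passed the test filled red. Acute-phase genes lie farthest right with 10 red points, and collagen, matrix and proliferation genes lie left of 0 with none.

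Only 4 genes had a called negative divergence slope. Lyz1 (chr10:117287797-117292868), a lysozyme, was at 31.3, 46, 13.5, 21.9 and 42.9 TPM in cachectic fat at 2 weeks and at 6.76, 11.3, 50.2, 8.24 and 16.2 at 4 weeks. It was at 2.54, 7.83, 4.48, 1.38 and 3.84 TPM at 6 weeks and at 1.61 to 5.92 at 8 weeks. Mock libraries held 5.45 to 40.8 TPM, and 6 of the 7 cachectic libraries at 8 weeks lay below all of them. The slope was -0.46 (SE 0.10, limma adjusted p = 0.0303). Its close relative Lyz2 may share reads with it, so the level of Lyz1 is uncertain.

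Nes, which encodes the intermediate filament nestin, fell in cachectic fat from 12.1 ± 3.99 TPM at 2 weeks (n = 5) to 4.49 ± 1.27 at 8 weeks (SD, n = 7). Mock fat held 13.5 ± 3.51 and 15 ± 5.36 TPM (SD, n = 5 each), and all 7 cachectic libraries at 8 weeks lay below all 20 mock libraries. The slope was -0.23 (SE 0.05, limma adjusted p = 0.0143).

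Celsr2, an adhesion receptor of the cadherin superfamily, differed most at 2 weeks. Its cachectic values were then 11.5, 6.03, 3.4, 7.38 and 22.1 TPM, against 1.83 to 3.6 TPM in mock fat, and 4 of the 5 were above every 2-week mock library. The gap went from 1.41 at 2 weeks through 0.08 and -0.58 to -0.51 at 8 weeks. The slope was -0.32 (SE 0.07, limma adjusted p = 0.0328), with -0.22 in the cachectic and 0.09 in the mock arm. In the same order, the 5 cachectic libraries of 2 weeks held 120, 33, 0.0903, 16.7 and 333 TPM of 6 summed mammary epithelium markers, with the highest and lowest sums in the libraries with the highest and lowest Celsr2. The mock libraries of 2 weeks held 0.1008 to 11.43 TPM of these markers. Their part in the Celsr2 result was not tested.

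Ccdc36, a gene of meiotic recombination in germ cells that was named after its values were seen, converged rather than diverged. Cachectic fat held 4.11, 2.1, 3.86, 3.06 and 3.11 TPM at 2 weeks and 0.0618 to 0.392 TPM at 8 weeks, where mock libraries held 0 to 0.634 TPM in all weeks. All 5 cachectic libraries of 2 weeks lay above every mock library, and the gap fell from 1.86 to 0.01. The slope was -0.28 (SE 0.05, limma adjusted p = 0.00285). In the non-cachectic arm at 2 weeks the values were 1.05, 4.05, 1.24, 0.108 and 0.021 TPM, so 3 of those 5 also lay above the mock range. Of the 4 genes with a called negative slope, 3 had a gap above 0 at 2 weeks, as did 7281 of the 9660 tested genes with a negative slope.

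Collagen and matrix genes leaned the same way without a call. All 17 collagen genes had divergence slopes below 0 (median -0.29), 0 were called by limma and 13 had an unadjusted p under 0.05. Their median gap went from -0.12 at 2 weeks to -2.19 at 8 weeks. Col1a1, the main fibrillar collagen, had a slope of -0.50 (SE 0.19, adjusted p = 0.319), with mock means of 250 ± 404 TPM at 2 weeks and 483 ± 612 at 8 weeks (SD, n = 5 each). Within the cachectic arm 4 collagen genes fell: Col3a1, Col5a3, Col15a1 and Col18a1. All 22 other matrix genes had slopes below 0 (median -0.22), with 0 called and 11 unadjusted. Under median-ratio rescaling 2 of the 17 collagen slopes were above 0, and the median was -0.27. With 1 library left out at a time the collagen median ran from -0.35 to -0.244, weakest without mock replicate 2 of 8 weeks. With library weights it was -0.235, with 2 slopes above 0 and 1 called negative.

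All 18 proliferation genes also had slopes below 0, with a median of -0.25, 0 called by limma and 15 at an unadjusted p under 0.05. Their median gap was 0.71 at 2 weeks, so they began higher in cachectic fat, and -1.06 at 8 weeks. With 1 library left out at a time their median slope ran from -0.282 to -0.179. It was weakest without cachectic replicate 1 of 2 weeks, and was -0.195 without replicate 5 of that group. With library weights it was -0.104, with 2 slopes above 0. Within the cachectic arm Ccnb1, Cdk1 and Ube2c fell. Among all tested genes 9660 of 14577 slopes were below 0, and 1764 had an unadjusted p under 0.05. The uniform sign and the unadjusted counts of the collagen, matrix and proliferation lists should be read against those numbers.

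The interferon response and chemokine lists held no called divergence slope, against 0.384% of all tested genes. An unadjusted p under 0.05 was found for 1764 of all 14577. Interferon response genes had 0 of 19 called (2 unadjusted, median 0.02), with 2 rises and 1 fall within the cachectic arm. Chemokines had 0 of 13 called (3 unadjusted, median -0.05), with 2 rises within the cachectic arm. Cxcl13, a B-cell chemokine, had the largest chemokine slope, 0.52 (limma adjusted p = 0.16), and passed at 0.61 (adjusted p = 0.00734) without cachectic replicate 3 of 8 weeks. Ccl8, a monocyte chemokine, had a slope of 0.28 (adjusted p = 0.476), and Cxcl9, an interferon target, one of -0.20 (adjusted p = 0.347). Adgre1, the macrophage marker F4/80, had a slope of 0.00.

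The remaining positive genes spanned metabolism, signalling and little-studied loci. Gyg, glycogenin, which primes glycogen synthesis, had a divergence slope of 0.27 (limma adjusted p = 0.0143). Isyna1, which makes inositol, had 0.30 (adjusted p = 0.0238 in limma). Aldh1l1, a folate enzyme, had 0.33 (adjusted p = 0.0244), and Sh2b2, an adaptor of the insulin receptor, had 0.30 (adjusted p = 0.0393). Kcna5, a potassium channel gene, had 0.28. Tmem252, whose role is not described here, had a slope of 0.47 (SE 0.11, adjusted p = 0.0303). The rest of the 52, all with slopes between 0.13 and 0.36, were Rtn4rl2, Cyp21a2-ps, Hsd17b10, Tekt1, Bcl2l10, Cyb5a, Gda, Gm10851, Tectb, Gucd1, 6330416G13Rik, Spire1, Larp1b, Mmgt1, Ctage5 and 1110008F13Rik. Of the 52 genes, 10 had a mock mean under 1 TPM, where log2(TPM + 1) understates a change.

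The non-cachectic tumour arm shows how the cachectic slope compares with that of another melanoma. The slope of cachectic minus non-cachectic fat passed in 75 genes (0.515%), 68 positive (0.466%) and 7 negative (0.048%). This comparison uses the same 22 cachectic libraries as the comparison with mock fat, so their results are not independent. For Itih4 the difference was 0.89 per week (limma adjusted p = 0.00326), beside 0.88 against mock fat, and non-cachectic libraries held 2.51 to 22.9 TPM. For Fetub it was 0.57 (adjusted p = 0.0005) beside 0.55. For Fkbp5 it was 0.84 (adjusted p = 0.00326) beside 0.64. For Hsd11b1 it was 0.43 (adjusted p = 0.011) beside 0.45, and for Mrap 0.26 (adjusted p = 0.0044) beside 0.27.

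Some genes passed against mock fat and not against the non-cachectic arm. The difference from the non-cachectic slope was 0.51 for Scd3 (limma adjusted p = 0.0738), -0.17 for Nes (adjusted p = 0.0585) and -0.23 for Ccdc36 (adjusted p = 0.107). Chil3 had 0.29 (adjusted p = 0.552), where 1 non-cachectic library of 6 weeks held 486 TPM. Cp had 0.09 (adjusted p = 0.441), beside 0.16 against mock fat. Serpina3c, Sepp1, Masp1, Chil6, Orm2, Isyna1 and Tcn2 did not pass either, at adjusted p from 0.056 to 0.0971. Nor did Gyg, Larp1b, Mmgt1, Tectb, Cyb5a, Gucd1, Tekt1, Ctage5 and Hsd17b10, at limma adjusted p from 0.0506 to 0.169. The other genes called against mock fat passed in both comparisons. In the other direction, Irs1, an insulin receptor substrate, had -0.19 (adjusted p = 0.00915) against the non-cachectic arm and -0.15 (adjusted p = 0.225) against mock. Tmem88b had -0.35 (adjusted p = 0.0278) and -0.15. Whether the non-cachectic and mock slopes themselves differed was not tested. Without the 2-week libraries, or without those over 100 TPM of urothelial markers, 0 genes passed here too (400 and 711 unadjusted), and without cachectic replicate 3 of 8 weeks 269 did.

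Markers of other cell types were tested in the same fit, and 0 members of 19 marker lists had a called divergence slope, against 0.384% of all tested genes. At that share few or no calls would be found in these lists, so the 0 does not show that cell types were unchanged. Since several plasma proteins above are known as liver products, liver transcripts were examined. The 6 liver markers summed to 7.072 to 252.5 TPM in cachectic fat at 8 weeks and 8.788 to 19.6 TPM in mock fat at 8 weeks. Albumin (Alb), the defining hepatocyte transcript, was at 0.1216 to 4.039 TPM in those cachectic libraries and at 3.872 to 182.2 TPM in the mock arm. Ttr was at or under 0.5398 and Apoa1 at or under 3.803 TPM in the 8-week cachectic libraries. Apoc3 was the exception, at 2.513 to 244.1 TPM there against 14.07 TPM at most in mock fat. The 1 mock library with raised Fga, replicate 5 of 6 weeks, held the mock maximum of Alb, and without it the Fga slope was 1.05 with a limma adjusted p of 0.019.

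Neutrophil markers had 4 of 4 slopes above 0 (median 0.21), with 0 called, 2 unadjusted and 2 rises within the cachectic arm, Csf3r and S100a8. Their sum at 8 weeks was 7.16 to 54.76 TPM in cachectic and 8.634 to 25.06 TPM in mock fat. Fibroblast markers had 9 of 10 slopes below 0 (median -0.15), and their median sum was 674.5 TPM in cachectic and 1105 TPM in mock libraries. Mesothelial markers had 8 of 8 below 0 (median -0.18). Melanocyte and melanoma markers summed to 7.233 TPM at most, with Tyr at or under 0.00859 TPM. The part of these cell types in the slopes was not tested.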

How the data were processed

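The authors deposited 1 table of TPM values per gene symbol for 62 libraries of white adipose tissue, made with a stranded mRNA kit, per the labels' protocols. Per the submitters' processing notes, reads were placed on mm10. Which aligner, counter and annotation were used is not given in the sources used here. Each library sums to 1000000 TPM, so depth is unknown and no count test or counting interval was used.

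Of 47643 genes, the 14577 whose mean across all 62 libraries reached 0.5 TPM entered the fits. The log2(TPM + 1) values were fitted with limma 3.58.1 in R 4.3.3 (trend and robust prior, 38 residual degrees of freedom) on arm, week centred at 5 and their product. P-values are two-sided and Benjamini-Hochberg adjusted over all tested genes, called under 0.05. The comparison with non-cachectic fat used the 42 libraries of those 2 arms. Departure from a line was an F test of the quadratic and cubic terms of the weekly gap.

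The members, the 40 gene lists (21 pathway, 19 marker) and the tests were chosen with earlier results of these data known, and the list of adrenal markers was added after seeing the data. Lists are described by counts and medians. Named genes were the 15 largest called slopes in each direction with a group mean of at least 10 TPM, up to 2 called members per list and direction, fixed fat genes, and the 5 largest slopes per direction in the other comparisons. All other called genes were named after their values were seen. Predicted genes, Rik symbols and mitochondrially encoded genes were skipped by the rule.

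Coordinates come from GENCODE M21 (GRCm38), promoters from RefSeq (GRCm38.p6). No 2 libraries held identical values. On data simulated for the divergence slope (14577 genes), 70 of 100 genes with a slope of 0.25 and 95 of 100 with 0.5 were recovered, with 14 unchanged genes among 179 called. The simulated noise was normal and independent for each gene and library, and slopes were given only to genes above a minimum mean level. Deviations shared by the genes of a library were not simulated, so these rates need not hold for the measured data. Alternatives are given in the closing section.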

Additional observations from a re-analysis of the deposited data

Results flagged for a closer look

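The named genes were checked for a library far from the rest of its group, by its gap over the group's range in log2(TPM + 1), at the 95% level. Of 304 groups of 5 or 7 libraries, 33 had such a library, and chance alone gives about 5% of groups. Values are in TPM.

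Cachectic replicate 3 of 8 weeks accounted for 8 of the 33. It was low for Itih4 (151, others 636 to 1340), Serpina3m (7.48, others 59.2 to 187), Fkbp5 (17.9, others 172 to 442) and Serpina3n (295, others 1300 to 3920). It was also low for Fetub (4.04, others 14.9 to 26.8), Lcn2 (3.2, others 31.9 to 129) and Hp (582, others 5080 to 20500), and high for Tmem88b (4.42, others 1.22 to 1.99).

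Cachectic replicate 1 of 6 weeks was high for Fgl1 (9.58) and low for Adipoq (2570), Scd1 (11300) and Ccl8 (82.4). Cachectic replicate 1 of 4 weeks was low for Ucp1 (25.5, others 391 to 772) and high for Saa3 (57.7), and replicate 2 of that week was high for Cxcl13 (65.4).

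In the mock arm at 2 weeks, replicate 5 was high for Fga (0.463), Fgl1 (0.126) and Pdk4 (214, others 39.2 to 46.4) and low for Hsd11b1 (39.8). Replicate 1 was high for Lcn2 (10.5) and Ccl8 (79.9), and replicate 2 for Lep (359). At 4 weeks, replicate 5 was high for Scd1 (16600) and Hp (717), replicate 2 for Lcn2 (166), and replicate 3 was low for Col1a1 (40.4). At 6 weeks, replicate 5, which held the highest mock albumin, was high for Fga (4.27) and Fgl1 (0.901) and low for Pnpla2 (1210). At 8 weeks, replicate 2 was low for Pnpla2 (900) and Scd1 (6390) and high for Lcn2 (405), and replicate 4 was high for Apoc2_1 (4.93).

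The weekly slope also differed by limma's test between the cachectic and the non-cachectic arm, in log2 units per week. The difference was 1.06 for Fga, 0.891 for Itih4, 0.844 for Fkbp5, 0.805 for Serpina3k and 0.714 for Cxcl13. It was -0.458 for Lyz1, -0.349 for Tmem88b, -0.281 for Celsr2 and -0.192 for Irs1.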

How the results depend on the processing

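The count of 56 called divergence slopes stayed within 1.5 times under both other pseudocounts (52 and 57), a minimum of 5 TPM (50), no trend (57), week as a factor (63) and a urothelial covariate (56). It was 35 with no filter on low values, 34 without mitochondrially encoded genes, 106 with median-ratio rescaling, 104 with all 62 libraries in 1 fit and 539 with library weights. It was 0 without the libraries over 100 TPM of urothelial markers, and 0, 12, 17 and 8 without week 2, 4, 6 or 8. These last fits have fewer samples, and the other causes were not tested. No named gene's called slope changed sign.

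For the cachectic slope, the 1244 calls became 2209 without mitochondrially encoded genes (867 rising, 1342 falling) and 2747 with median-ratio rescaling (1394 rising, 1353 falling). With library weights they became 3861 (2973 rising, 888 falling). They became 1 without the urothelial libraries and 9, 819 and 445 without week 2, 6 or 8. The mock slope, with 0 calls (710 unadjusted), gave 225 with library weights and 1 without week 6, and the departure from a line gave 7 with library weights. For the cachectic minus non-cachectic slope, 75 calls became 39 with no filter, 172 with median-ratio rescaling, 141 with all 62 libraries and 1440 with library weights. They became 0 without the urothelial libraries and 0, 38 and 13 without week 2, 4 or 6. Without mitochondrially encoded genes there were 70 (43 positive, 27 negative).

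Leaving out 1 library at a time gave 25 to 136 divergence slopes, 691 to 1772 cachectic slopes and 37 to 269 cachectic minus non-cachectic slopes. It gave 0 to 0 for the mock slope and for the departure. The cachectic slope moved by over 1.5 times without cachectic replicate 6 of 8 weeks (691) and without cachectic replicate 1 of 2 weeks (768). For the non-cachectic comparison, the count moved by over 1.5 times without 13 libraries. In the cachectic arm these were replicates 1, 4 and 5 of 2 weeks (41, 49 and 40), replicate 2 of 4 weeks (137) and replicates 3 and 6 of 8 weeks (269 and 38). In the non-cachectic arm they were replicates 3 and 5 of 2 weeks (39 and 37) and replicates 1 to 5 of 8 weeks (48, 45, 202, 47 and 48).

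With the replicate number as a block within a week, 22 divergence slopes and 42 slopes against the non-cachectic arm passed. With the number as a block across weeks, 32, 753 cachectic slopes and 35 passed. Of 20 pairs of cachectic and mock libraries with the same number and week, 7 had correlated deviations over 0.1 (range -0.47 to 0.57) and 5 correlated best with their own number, so the numbers were not taken to pair mice. At 2 weeks, replicates 1, 3 and 4 correlated best with their own number (0.573, 0.455 and 0.365), and replicates 2 and 5 did not (0.03 and -0.302). Whether same-numbered libraries of that week shared a source was not tested. The cachectic and mock slopes were not run with a block within a week, nor the departure with weeks left out or week as a factor. Depth is unknown, so its effect on low genes could not be judged.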
